A study of Mus musculus with 6 samples.

Results

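The 34 genes described here serve glycolysis, the fate of pyruvate and the cellular response to low oxygen, and were taken as a list by gene symbol. All 34 were found among the 57180 gene identifiers of the count table, and all 34 passed the filter on low counts, which kept 18143 genes. They were followed in cultured mouse fibroblasts of 3 origins: heart (cardiac), lung and tail tip. Cells of each origin had received an adenovirus with Cre recombinase (Ad-Cre, which the submitters call a GATA4 knockout) or with green fluorescent protein (Ad-GFP, the control), were kept in medium with 10% serum and were harvested after 48 h. There was 1 library of polyadenylated RNA in each of the 6 groups, and the labels give the genotype of all 6 as wild type. Cre recombines DNA only at its recognition sites, and the labels name neither a Gata4 allele that carries them nor the age or sex of the mice. How many animals a library holds is not stated either. Levels are given as CPM, which is reads per megaread of the library after scaling with TMM factors, and in comparisons between genes as a length-scaled level (TPM).

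Glycolysis splits glucose into pyruvate in the cytosol. Pyruvate is then either reduced to lactate and exported, or oxidised in mitochondria through pyruvate dehydrogenase, an enzyme that pyruvate dehydrogenase kinases switch off. When oxygen is scarce, prolyl hydroxylases no longer mark the transcription factor subunit HIF1A for destruction, and HIF1A with its partner ARNT binds a short core motif in DNA and raises transcription of glucose transporters, glycolytic enzymes, a pyruvate dehydrogenase kinase, mitophagy receptors and angiogenic factors. HIF1A is controlled mainly at the protein level, which RNA counts do not measure. Fibroblasts draw on the same enzymes while they build matrix, and the collagen prolyl hydroxylases are themselves hypoxia-induced.

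Library totals ran from 26170316 to 33779069 reads, at which a count of 0 allows up to 3 reads, or 0.0888 to 0.115 CPM. Gata4 RNA was not lower in the libraries labelled Ad-Cre, which had 149 CPM in cardiac fibroblasts, against 146 CPM with Ad-GFP, and 19.2 CPM in lung fibroblasts, against 14.7 CPM with Ad-GFP. The deleted part is not given, so these counts neither show nor exclude recombination, and every direction between the viruses is drawn from the labels. All 10 fibroblast markers examined were detected in all 6 libraries. Macrophage markers, however, differed by origin, with a summed level of 639 and 1066 CPM in cardiac Ad-Cre and Ad-GFP libraries, 15.2 and 19.7 CPM in lung and 4615 and 5444 CPM in tail tip. All 12 were detected in every cardiac and tail tip library, whereas C1qa and C1qb had no read in either lung library, and Adgre1, C1qc and Itgam had none in the lung Ad-Cre library. Mitosis genes ran the other way, with a summed level of 1961 and 1752 CPM in cardiac, 3590 and 3368 CPM in lung and 352 and 375 CPM in tail tip libraries (Ad-Cre before Ad-GFP). Of the mitosis list 12 of 12 genes were called higher than tail tip in cardiac (against 15.5% of all tested genes) and 12 of 12 in lung fibroblasts (against 22.3%). Fibroblast markers summed to 24157 and 33191 CPM in cardiac, 12035 and 11443 CPM in lung and 27478 and 28747 CPM in tail tip libraries, and 7 mesothelial markers to 135 and 62.9 CPM, 196 and 156 CPM, and 9.3 and 7.42 CPM in the same order. Mitochondrial genes took 1.9% to 2.65% of the reads in cardiac, 4.4% to 4.72% in lung and 1.15% to 1.32% in tail tip libraries. In bulk RNA, fewer cells of a type and less RNA per cell cannot be told apart, and the part that other cell types, cell division or RNA quality had in the differences below was not tested.

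The first question was how the 34 genes differ between fibroblasts of different origin, for which both libraries of an origin served as its replicates in an additive model of origin and virus (edgeR quasi-likelihood test, two-sided, Benjamini-Hochberg over 18143 genes). Cardiac and lung fibroblasts both had lower levels than tail tip fibroblasts for the lactate exporter Slc16a3, the kinase Pdk1, the mitophagy receptor Bnip3, the collagen hydroxylase P4ha2, Hif1a itself and the minor isozymes Aldoc and Eno2. The kinase Pdk4 was the only gene called higher in both, with fitted levels 12.4-fold higher in cardiac and 18-fold higher in lung than in tail tip fibroblasts. Egln1 and Vegfa were called higher than tail tip in lung alone. The abundant enzymes in the middle of glycolysis differed little.

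Against tail tip, 18 of 34 genes were called lower in cardiac fibroblasts (52.9%, against 18% of all tested genes), 1 was called higher (2.94%, against 15.5%) and 15 were not called. In lung fibroblasts 17 of 34 were called lower than in tail tip (50%, against 28.2% of all tested genes), 3 were called higher (8.82%, against 22.3%) and 14 were not called. Cardiac against lung fibroblasts gave 8 genes called higher (23.5%, against 20.8%) and 7 called lower (20.6%, against 17.6%), shares that lie near the background. The median log2 fold change of the 34 genes was -0.55 for cardiac against tail tip, with -0.06 over all tested genes, -0.77 for lung against tail tip, with -0.06, and -0.08 for cardiac against lung, with -0.01. These 3 comparisons share libraries, so their counts are not independent. Calls are easier for abundant genes, and among the 12446 tested genes that averaged 2 CPM or more, as all 34 do, 21.4% were called lower and 20% higher in cardiac than in tail tip, and 32.9% lower and 28.9% higher in lung than in tail tip.

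**Figure D1:**
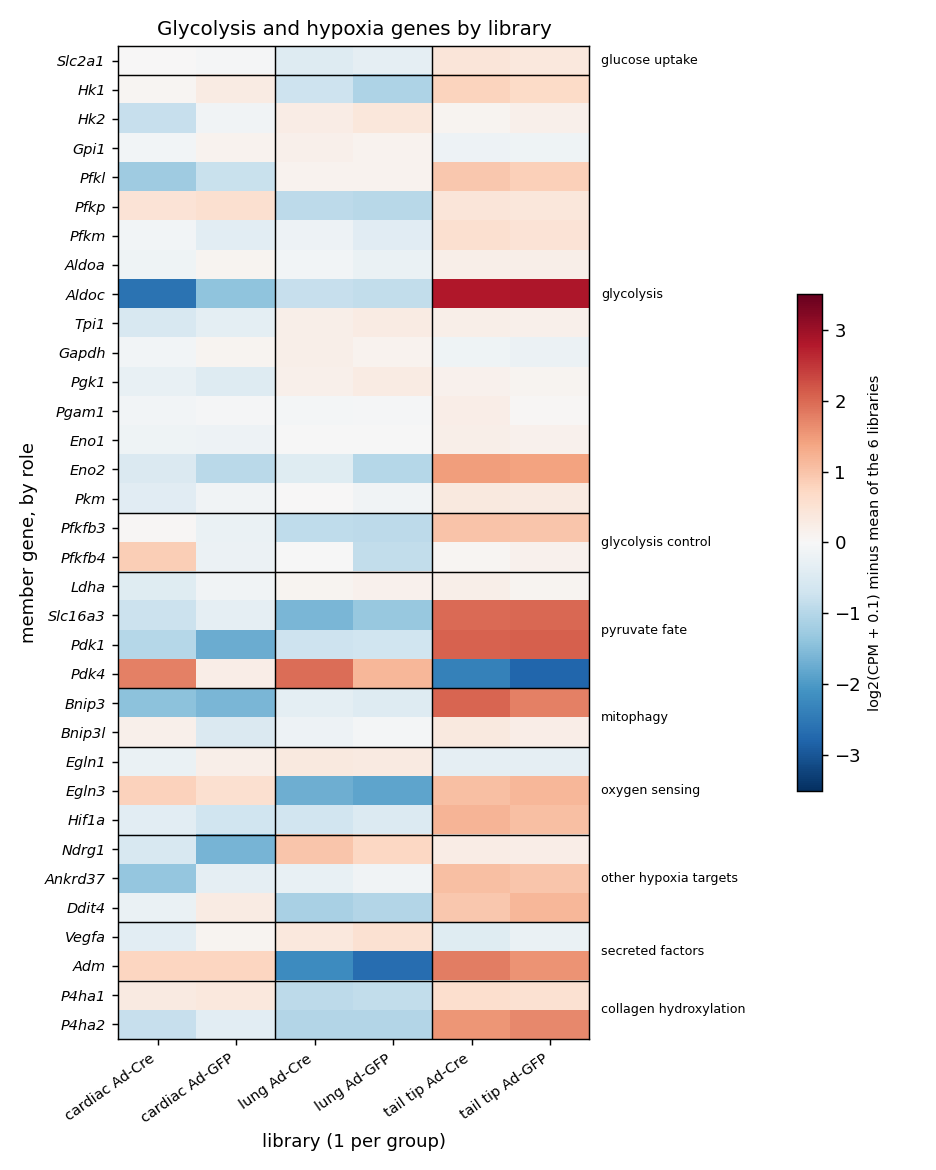
Level of each of the 34 genes in the 6 libraries, as log2(CPM + 0.1) minus that gene's mean over the libraries (colour), with genes grouped by role from top to bottom and libraries from left to right. Slc16a3, Pdk1, Bnip3, P4ha2, Eno2, Aldoc and Hif1a are red in both tail tip libraries and blue in the other 4, and Pdk4 shows the opposite colours against tail tip.

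Among the genes of glucose uptake and the early steps, all were present in all 6 libraries, and the shares of the isozymes differed by origin. Slc2a1, the basal glucose transporter, was at 129 and 126 CPM in cardiac Ad-Cre and Ad-GFP libraries, 93.7 and 103 CPM in lung and 171 and 167 CPM in tail tip. It was lowest in both lung libraries and was called lower there than in tail tip (log2 fold change -0.78 ± 0.14 SE, adjusted p = 0.0033), while the difference of cardiac from tail tip was not called (-0.41 ± 0.14, adjusted p = 0.063). Without the tail tip Ad-Cre library the call for lung was lost (adjusted p = 0.0714).

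Hexokinases trap glucose in the cell by phosphorylation. Hk1, the widely expressed form, was at 161 and 187 CPM in cardiac, 91.4 and 72.2 CPM in lung and 259 and 240 CPM in tail tip libraries (Ad-Cre before Ad-GFP). Lung was lowest without overlap, with a log2 fold change of 1.09 ± 0.18 for cardiac against lung (adjusted p = 0.0031) and -1.61 ± 0.18 for lung against tail tip (adjusted p = 0.00031). Hk2, the insulin- and hypoxia-responsive form, was at 62.2 and 99.2 CPM in cardiac, 129 and 144 CPM in lung and 116 and 122 CPM in tail tip libraries. Here cardiac fibroblasts were lowest, by -0.78 ± 0.18 against lung (adjusted p = 0.015) and -0.59 ± 0.18 against tail tip (adjusted p = 0.045). The call against tail tip was lost without the cardiac Ad-Cre library (adjusted p = 0.144), the tail tip Ad-Cre library (0.429) or the tail tip Ad-GFP library (0.0931). As a share of the summed length-scaled level of both genes, Hk1 made up 64.3% and 56.9% in cardiac, 33.2% and 26% in lung and 61.0% and 57.8% in tail tip libraries, so that Hk2 was the larger part in the lung libraries and in no other.

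Phosphofructokinase, the main control point of the pathway, is built from liver (Pfkl), platelet (Pfkp) and muscle (Pfkm) subunits. Pfkl was at 51.8 and 72.6 CPM in cardiac Ad-Cre and Ad-GFP libraries, 136 and 135 CPM in lung and 236 and 219 CPM in tail tip. The origins were ordered without overlap, and the log2 fold change was -1.13 ± 0.18 for cardiac against lung (adjusted p = 0.0033), -1.88 ± 0.19 for cardiac against tail tip (adjusted p = 0.00039) and -0.75 ± 0.18 for lung against tail tip (adjusted p = 0.012, and 0.213 without the tail tip Ad-Cre library). Pfkp followed another order, at 100 and 105 CPM in cardiac, 37.8 and 36.4 CPM in lung and 95.9 and 94.2 CPM in tail tip libraries. It was higher in cardiac than in lung (1.47 ± 0.14, adjusted p = 0.00038) and lower in lung than in tail tip (-1.36 ± 0.14, adjusted p = 0.00027), while cardiac and tail tip were not called apart (0.11 ± 0.14, adjusted p = 0.57). Pfkp overlaps the gene Pitrm1 on the opposite strand, and since the strand setting of the counting is not given, its reads may include some of that gene, which held 43.7% to 84.3% of the reads of both. Pfkm lay between 30.1 and 37.4 CPM in the 4 cardiac and lung libraries and at 59.2 and 55.1 CPM in tail tip. It was called lower than tail tip in cardiac (-0.75 ± 0.15, adjusted p = 0.0093) and in lung (-0.82 ± 0.15, adjusted p = 0.0036). The cardiac call was lost without the tail tip Ad-Cre (adjusted p = 0.0764) or Ad-GFP library (0.165), and the lung call without the tail tip Ad-GFP library (0.0829). The length-scaled share of Pfkl was 29.4% and 38.8% in cardiac, 60.5% and 63.4% in lung and 58.7% and 58.2% in tail tip libraries, and that of Pfkp 28.3% and 28.1%, 8.38% and 8.48%, and 11.9% and 12.5% in the same order. Without length scaling Pfkp was the largest part in cardiac libraries, at 52.9% and 50.4%.

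The PFKFB enzymes make and remove fructose 2,6-bisphosphate, which activates phosphofructokinase, and Pfkfb3 is the form with the strongest kinase activity. Pfkfb3 was at 41.4 and 34.1 CPM in cardiac, 21.6 and 21.3 CPM in lung and 81.1 and 79.5 CPM in tail tip libraries (Ad-Cre before Ad-GFP). All 3 differences passed the test, with log2 fold changes of 0.81 ± 0.16 for cardiac against lung (adjusted p = 0.0071), -1.09 ± 0.16 for cardiac against tail tip (adjusted p = 0.0021) and -1.90 ± 0.16 for lung against tail tip (adjusted p = 9.6e-05). Pfkfb4, another hypoxia-responsive form, was not called between origins in the main fit described above (adjusted p = 0.073 for cardiac against lung). It is described with the viruses.

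The main enzymes from aldolase to pyruvate kinase, with Ldha, had the 8 highest mean length-scaled levels of the 34 genes. Over the 6 libraries the length-scaled level was 1450 to 1716 TPM for Gapdh, 1627 to 2695 TPM for Pkm (pyruvate kinase), 893 to 1376 TPM for Aldoa (aldolase) and 823 to 1306 TPM for Pgk1 (phosphoglycerate kinase). It was 644 to 888 TPM for Eno1 (enolase), 437 to 604 TPM for Pgam1 (phosphoglycerate mutase) and 422 to 725 TPM for Tpi1 (triose phosphate isomerase). Gpi1 (glucose phosphate isomerase), of an earlier step and not among the highest, was at 228 to 265 TPM. None of the 8 genes from Gapdh to Gpi1 whose levels are given here was called by more than 1.0 on the log2 scale in any comparison of origins. The calls among them in the main fit were Tpi1, Pgk1 and Pkm. Tpi1 and Pgk1 were lower in cardiac than in lung (-0.70 ± 0.15 and -0.59 ± 0.15) and than in tail tip (-0.65 ± 0.15 and -0.47 ± 0.15). Pkm was lower in cardiac than in tail tip (-0.57 ± 0.17, adjusted p = 0.034). Gapdh, Pgk1, Pgam1 and Eno1 have near-identical copies in the genome, and how the authors divided reads among copies is not given. Pkm shares sequence with 3 other genes, and the most counted of them, Gm49759, overlaps Pkm itself on the same strand. Of the reads counted to Gapdh and its copies together, the copies took 0.681% to 6.65%, and of those counted to Eno1 and its copies, Eno1b among them, the copies took 17.5% to 22.6%. Without either tail tip library in turn the calls of Tpi1, Pgk1 and Pkm against tail tip were lost, at adjusted p between 0.0994 and 0.415, and that of Pgk1 against lung was lost without the lung Ad-GFP library (adjusted p = 0.104) or either tail tip library (0.0526 without Ad-Cre and 0.0516 without Ad-GFP).

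The minor isozymes of this stretch told the origins apart far more sharply. Eno2, the neuronal enolase, was at 7 and 5.07 CPM in cardiac, 7.44 and 4.94 CPM in lung and 27.5 and 26.3 CPM in tail tip libraries (Ad-Cre before Ad-GFP). Tail tip stood apart from the other 4 libraries, with log2 fold changes of -2.18 ± 0.23 for cardiac against tail tip (adjusted p = 0.0005) and -2.15 ± 0.23 for lung against tail tip (adjusted p = 0.00027). Aldoc, the brain aldolase, had 2 and 9 reads in cardiac, 12 and 13 in lung and 227 and 221 in tail tip libraries. Its fitted log2 fold changes of -5.34 ± 0.62 for cardiac and -3.91 ± 0.56 for lung against tail tip (adjusted p = 0.0008 and 0.0011) rest on those few reads. Even in tail tip fibroblasts the minor forms were a small share beside the main ones. Aldoc was 0.603% and 0.611% of the summed length-scaled level of Aldoa and Aldoc in Ad-Cre and Ad-GFP libraries. Eno2 was 2.55% and 2.53% of that of Eno1 and Eno2, a sum that leaves out other enolase genes such as Eno3.

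**Figure D2:**
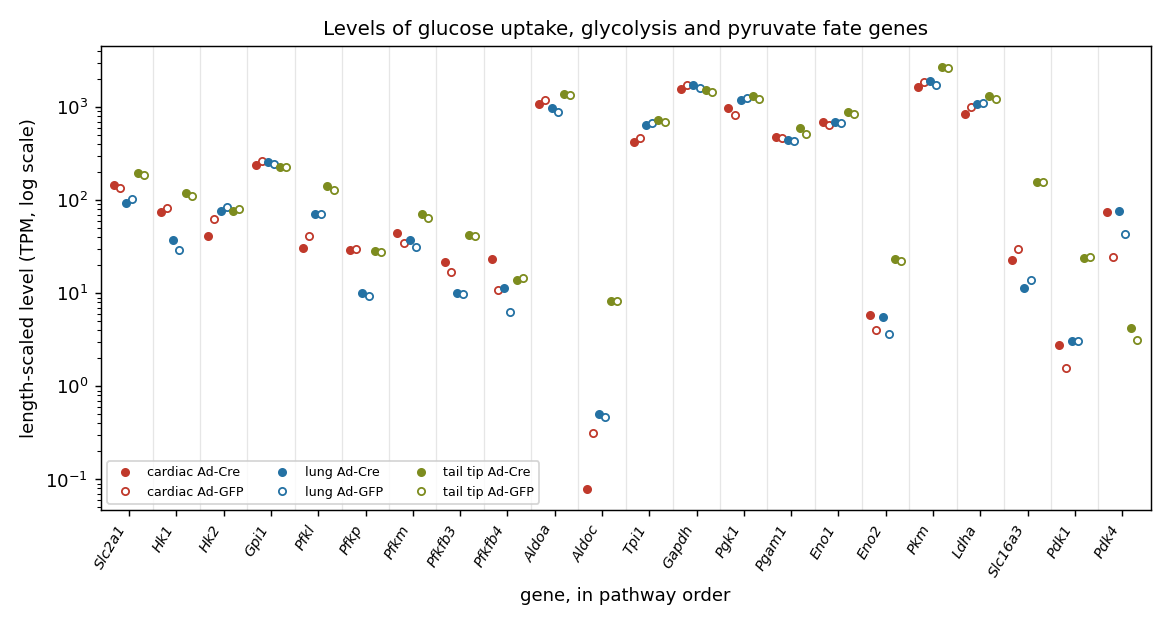
Length-scaled level (TPM, log axis) of the 22 genes of glucose uptake, glycolysis and pyruvate fate, in pathway order from left to right, with 1 point per library (filled, Ad-Cre; open, Ad-GFP). The abundant enzymes from Aldoa to Ldha lie close together across origins, while Aldoc, Eno2, Slc16a3, Pdk1 and Pdk4 separate the tail tip libraries from the rest.

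Of the 4 genes that bear on what becomes of pyruvate, 3 differed strongly from tail tip. Ldha, the lactate dehydrogenase subunit that favours lactate, was at 714 and 876 CPM in cardiac, 1017 and 1053 CPM in lung and 1104 and 1029 CPM in tail tip libraries. It was not called in any comparison of origins in the main fit. Slc16a3 (MCT4), the transporter that exports lactate, was at 31.0 and 42.6 CPM in cardiac, 17.2 and 21 CPM in lung and 209 and 211 CPM in tail tip libraries (Ad-Cre before Ad-GFP). No origins overlapped, and the log2 fold change was 0.94 ± 0.17 for cardiac against lung (adjusted p = 0.0049), -2.53 ± 0.17 for cardiac against tail tip (adjusted p = 7.9e-05) and -3.47 ± 0.18 for lung against tail tip (adjusted p = 1.2e-05).

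Pdk1 and Pdk4 encode kinases that switch off pyruvate dehydrogenase, Pdk1 being a hypoxia target and Pdk4 a gene of fasting and fat use. Pdk1 was at 5.53 and 3.29 CPM in cardiac Ad-Cre and Ad-GFP libraries, 6.70 and 6.86 CPM in lung and 46.8 and 48.4 CPM in tail tip. Pdk4 was at 67.0 and 23.0 CPM in cardiac, 76.4 and 44.3 CPM in lung and 3.74 and 2.80 CPM in tail tip libraries. The 2 genes thus ran in opposite directions against tail tip, with log2 fold changes of -3.46 ± 0.26 for Pdk1 and 3.63 ± 0.29 for Pdk4 in cardiac (adjusted p = 0.00012 and 0.00015) and -2.81 ± 0.25 and 4.17 ± 0.30 in lung fibroblasts (adjusted p = 0.00012 and 4.3e-05). Cardiac and lung were not called apart for either (-0.65 ± 0.25 for Pdk1, adjusted p = 0.083, and -0.54 ± 0.25 for Pdk4, adjusted p = 0.13). Of their summed length-scaled level, Pdk1 made up 3.59% and 6.06% in cardiac, 3.81% and 6.53% in lung, and 85% and 88.6% in tail tip libraries.

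Promoter sequences of these kinases and of some, not all, of the other genes that separated tail tip from the rest are shown. The members include known HIF targets, and the core of the hypoxia response element can be read directly in such sequences. They are RefSeq windows of build GRCm38.p6, from 250 bases before to 50 bases after an annotated start, with the core letters ACGTG or GCGTG on either strand in capitals (CACGT and CACGC are the same letters on the other strand, and where the 2 strands overlap, as in CACGTG, both were counted). The counts themselves were made on another build, and no coordinates of theirs are used.
Pdk1, chr2:71872974-71873273, plus strand: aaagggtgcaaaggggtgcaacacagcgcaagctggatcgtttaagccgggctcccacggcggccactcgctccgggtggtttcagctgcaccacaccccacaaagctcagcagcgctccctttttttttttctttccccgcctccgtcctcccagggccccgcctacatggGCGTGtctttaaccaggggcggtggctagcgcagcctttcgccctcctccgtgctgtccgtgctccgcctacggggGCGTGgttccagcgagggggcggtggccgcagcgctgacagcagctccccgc
Pdk4, chr6:5496229-5496528, minus strand: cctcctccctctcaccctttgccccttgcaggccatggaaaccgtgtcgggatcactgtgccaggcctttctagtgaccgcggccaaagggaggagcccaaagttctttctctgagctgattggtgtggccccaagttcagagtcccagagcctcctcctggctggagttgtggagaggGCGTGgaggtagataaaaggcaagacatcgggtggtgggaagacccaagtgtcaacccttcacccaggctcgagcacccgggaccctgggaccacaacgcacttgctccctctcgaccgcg
Bnip3, chr7:138909457-138909756, minus strand: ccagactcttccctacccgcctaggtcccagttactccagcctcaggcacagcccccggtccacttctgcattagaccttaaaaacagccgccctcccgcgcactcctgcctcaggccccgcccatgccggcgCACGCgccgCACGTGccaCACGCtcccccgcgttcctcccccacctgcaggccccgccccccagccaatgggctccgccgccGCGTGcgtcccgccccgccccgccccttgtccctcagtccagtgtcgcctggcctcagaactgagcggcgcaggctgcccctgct
Slc16a3, chr11:120948817-120949116, plus strand: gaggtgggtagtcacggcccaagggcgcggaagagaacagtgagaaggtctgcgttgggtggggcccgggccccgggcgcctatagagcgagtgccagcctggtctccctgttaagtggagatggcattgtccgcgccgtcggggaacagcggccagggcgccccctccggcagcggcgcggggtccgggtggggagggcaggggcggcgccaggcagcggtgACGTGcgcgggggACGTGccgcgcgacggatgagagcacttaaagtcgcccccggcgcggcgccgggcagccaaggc
P4ha2, chr11:54100674-54100973, plus strand: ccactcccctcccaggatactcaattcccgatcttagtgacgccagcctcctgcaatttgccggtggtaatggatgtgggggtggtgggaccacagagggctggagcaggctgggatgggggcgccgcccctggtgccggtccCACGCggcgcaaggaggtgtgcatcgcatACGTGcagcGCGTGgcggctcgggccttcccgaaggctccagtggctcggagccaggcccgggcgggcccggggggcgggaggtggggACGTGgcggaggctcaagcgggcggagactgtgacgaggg

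The core occurred 2 times in the Pdk1 window and 1 time in that of Pdk4, 5 times for Bnip3, 2 times for Slc16a3 and 4 times for P4ha2. Bnip3, Slc16a3 and P4ha2 held the letters ACGTG, and both Pdk windows only GCGTG. In all, 32 of the 34 genes had a window (Bnip3l and Ndrg1 did not), and the first listed window held a core for 25 of those 32 (78.1%) and ACGTG for 18 (56.3%). Over the first windows of 27025 genes the shares were 43.8% and 19.7%, and over the 11871 tested genes with a window 60.4% and 24.7%. Windows of the 32 genes were 62.7% G or C, against 60.2% for those tested genes. The first listed windows of Hk1, Gpi1, Aldoa, Tpi1, Eno2, Pkm and Vegfa held no core. Among these, Eno2 also separated tail tip from the rest. Aldoc and Hif1a, which did so too, held 3 cores each. A match of 5 letters describes the sequence and shows no binding. Genes such as Ldha with 7 cores and Gapdh with 3 were among those that were not called between origins in the main fit.

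Receptors of mitophagy, the removal of mitochondria, were represented by Bnip3 and Bnip3l. Bnip3 was at 8.77 and 7.86 CPM in cardiac, 18.9 and 17.4 CPM in lung and 99.0 and 81.6 CPM in tail tip libraries (Ad-Cre before Ad-GFP). The origins did not overlap, and the log2 fold change was -1.12 ± 0.16 for cardiac against lung (adjusted p = 0.0019), -3.44 ± 0.17 for cardiac against tail tip (adjusted p = 2.8e-05) and -2.31 ± 0.16 for lung against tail tip (adjusted p = 3.8e-05). Bnip3 shares 47.2% of its 50-base stretches with other genes, to which 0.616% to 4.12% of the reads of the group were counted. Bnip3l, also called Nix, lay between 62.1 and 111 CPM in all 6 libraries and was not called between origins in the main fit. Bnip3 was 13.2% and 17.7% of their summed length-scaled level in cardiac, 29.5% and 26% in lung and 60.4% and 57.5% in tail tip libraries. Without length scaling it was 47.2% and 44.3% in tail tip, still above the other 4 libraries.

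Among the oxygen sensors, Hif1a and its hydroxylases differed. Hif1a was at 170 and 136 CPM in cardiac, 139 and 158 CPM in lung and 500 and 459 CPM in tail tip libraries (Ad-Cre before Ad-GFP). Cardiac and lung overlapped, and both were lower than tail tip, with log2 fold changes of -1.65 ± 0.17 (adjusted p = 0.00044) and -1.69 ± 0.17 (adjusted p = 0.0002). Egln3 (PHD3), a hydroxylase that is itself a HIF target, was at 20.3 and 17.2 CPM in cardiac, 3.47 and 3.15 CPM in lung and 24.5 and 26.3 CPM in tail tip libraries. Only the lung libraries were low, with a log2 fold change of 2.5 ± 0.21 for cardiac against lung (adjusted p = 0.0002) and -2.94 ± 0.21 for lung against tail tip (adjusted p = 4.9e-05). Egln1 (PHD2), the main hydroxylase in normal oxygen, lay between 71.4 and 114 CPM and was called higher in lung than in tail tip (0.66 ± 0.17, adjusted p = 0.015), a call that was lost without the lung Ad-Cre library (adjusted p = 0.0987), the tail tip Ad-Cre library (0.0841) or the tail tip Ad-GFP library (0.238).

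The hypoxia targets with other functions did not share 1 pattern. Adm encodes adrenomedullin, a vasodilator peptide, and was at 104 and 105 CPM in cardiac, 13.3 and 9.70 CPM in lung and 216 and 185 CPM in tail tip libraries (Ad-Cre before Ad-GFP). Its log2 fold changes of 3.20 ± 0.18 for cardiac against lung (adjusted p = 3.6e-05) and -4.13 ± 0.19 for lung against tail tip (adjusted p = 7.9e-06) were the largest among the 34 genes for the first comparison and the largest decrease for the second, and cardiac against tail tip gave -0.93 ± 0.16 (adjusted p = 0.0051). Vegfa, the angiogenic growth factor, ran the other way, at 180 and 246 CPM in cardiac, 298 and 336 CPM in lung and 174 and 198 CPM in tail tip libraries, and was lower in cardiac than in lung (-0.58 ± 0.15, adjusted p = 0.019) and higher in lung than in tail tip (0.77 ± 0.15, adjusted p = 0.0041). The first call was lost without the lung Ad-Cre library (adjusted p = 0.0818) and the other without the tail tip Ad-GFP library (0.106).

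Ndrg1, a stress-induced gene of differentiation, was lowest in cardiac fibroblasts, at 15.3 and 7.31 CPM in cardiac, 44.6 and 37.7 CPM in lung and 27.5 and 26.9 CPM in tail tip libraries. The log2 fold change was -1.92 ± 0.27 against lung (adjusted p = 0.0018) and -1.34 ± 0.27 against tail tip (adjusted p = 0.0085). Ddit4 (REDD1), an inhibitor of mTORC1 signalling, was at 31.0 and 44.1 CPM in cardiac, 16.6 and 17.6 CPM in lung and 69.0 and 81.1 CPM in tail tip libraries, with log2 fold changes of 1.12 ± 0.17 for cardiac against lung (adjusted p = 0.0026), -1.01 ± 0.17 for cardiac against tail tip (adjusted p = 0.004) and -2.13 ± 0.17 for lung against tail tip (adjusted p = 8.2e-05). Its order, tail tip over cardiac over lung, was that of Adm, Slc16a3 and Pfkfb3, and also of Slc2a1, Hk1, Egln3, P4ha1 and P4ha2. The summed macrophage markers had the same order, and whether they bear on these genes was not tested. Ankrd37 had 20 and 47 reads in cardiac, 38 and 48 in lung and 129 and 117 in tail tip libraries, and its call for cardiac against tail tip (-1.91 ± 0.49, adjusted p = 0.023) was lost without either tail tip library (adjusted p = 0.261 without Ad-Cre and 0.0798 without Ad-GFP). Ankrd37 also overlaps Lrp2bp on the opposite strand, which held 13.3% to 62.3% of the reads of both.

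P4ha1 and P4ha2 encode the catalytic subunits of collagen prolyl 4-hydroxylase, which stabilises the collagen helix. P4ha1 was at 325 and 338 CPM in cardiac, 139 and 143 CPM in lung and 391 and 379 CPM in tail tip libraries (Ad-Cre before Ad-GFP). P4ha2 was at 55.7 and 75.2 CPM in cardiac, 47.3 and 47.9 CPM in lung and 286 and 310 CPM in tail tip libraries. The lung libraries were low for both, but cardiac fibroblasts were near tail tip for P4ha1 (-0.22 ± 0.14, adjusted p = 0.27) and called lower for P4ha2 (-2.20 ± 0.17, adjusted p = 0.00012). Lung against tail tip gave -1.45 ± 0.14 for P4ha1 (adjusted p = 0.00017) and -2.64 ± 0.17 for P4ha2 (adjusted p = 2.8e-05), and cardiac against lung 1.23 ± 0.14 for P4ha1 (adjusted p = 0.00067). P4ha2 was 10.1% and 12.8% of the summed length-scaled level of both subunits in cardiac, 18.3% and 18.1% in lung and 32.6% and 35% in tail tip libraries.

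**Figure D3:**
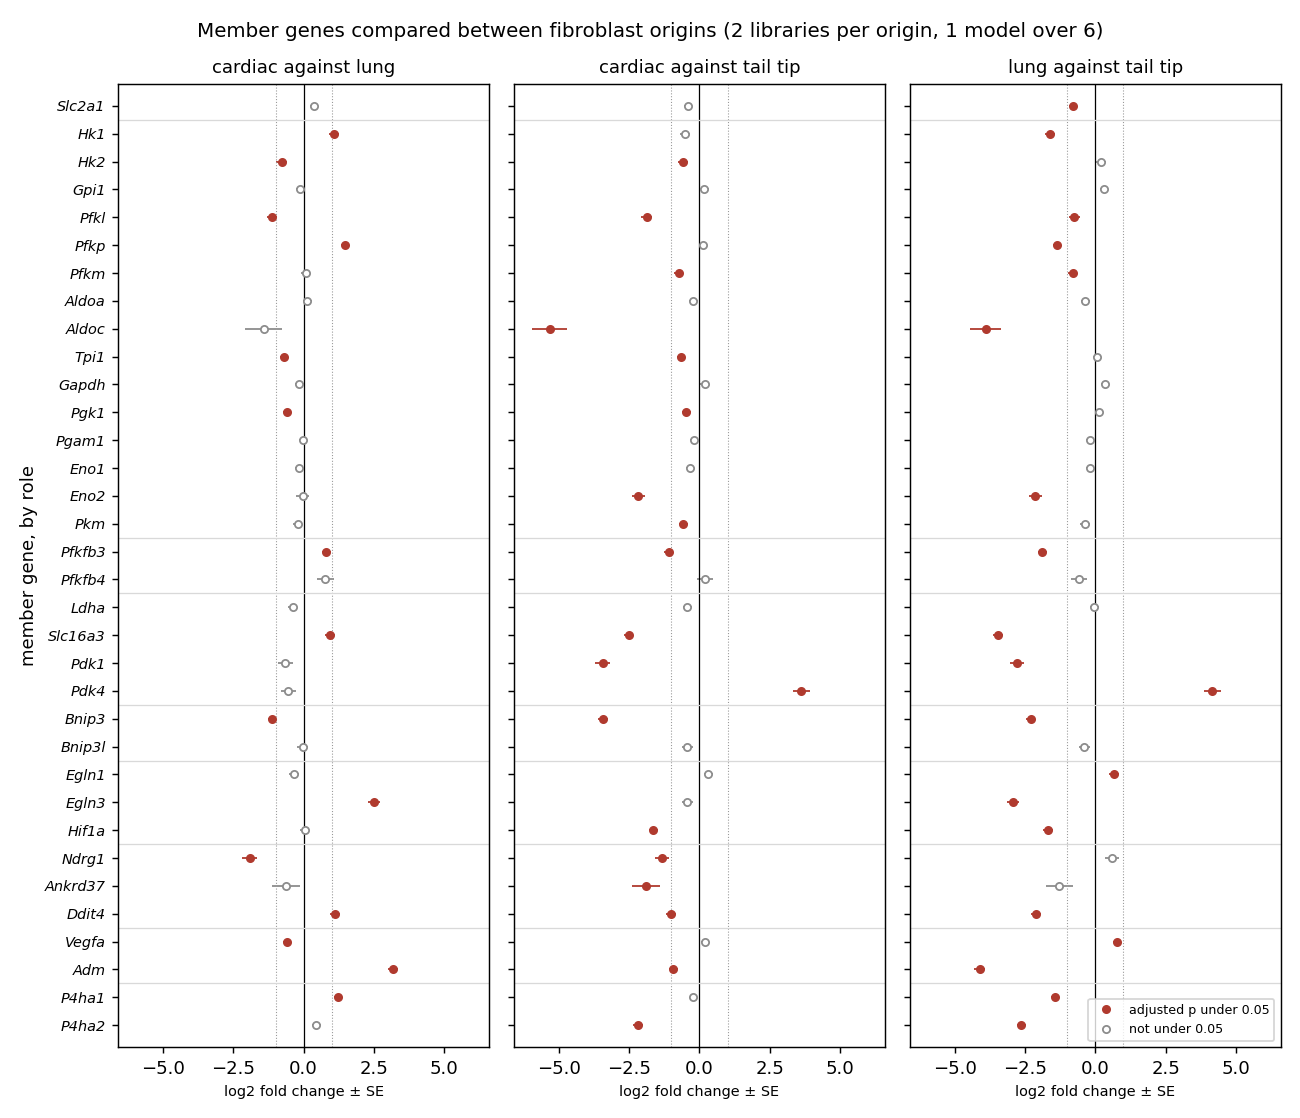
Log2 fold change ± SE of the 34 genes, grouped by role, for cardiac against lung, cardiac against tail tip and lung against tail tip fibroblasts (panels from left to right, 2 libraries per origin, red when the adjusted p is under 0.05, dotted lines at 2-fold). Most red points of the panels against tail tip lie to the left of 0, with Pdk4 far to the right, at 3.63 and 4.17.

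**Figure D4:**
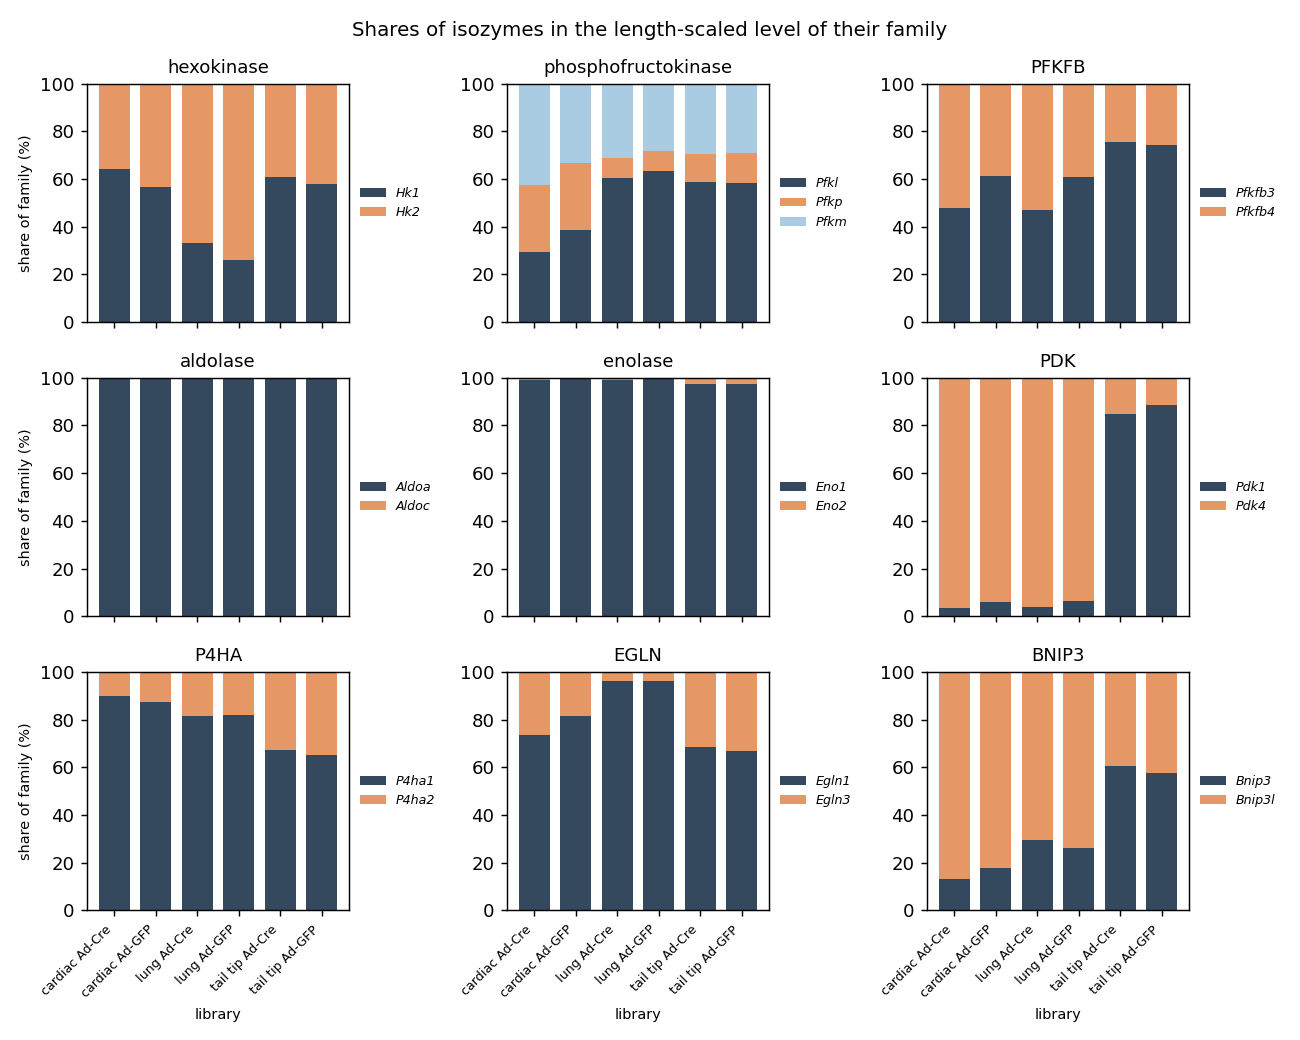
Share (%) of each isozyme in the summed length-scaled level of its family, for 9 families, with libraries from left to right. Pdk1 and Bnip3 fill most of their bars in tail tip libraries only (Bnip3 fills 47.2% and 44.3% there without length scaling), Hk2 in lung libraries only, and Pfkp takes a larger share in the cardiac libraries than in the other 4.

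Other genes of the same pathways were examined beside the 34. Their lists were chosen with earlier results of these data known, and their shares are set against all tested genes, not matched for level. Of 37 other hypoxia targets tested, 18 were called lower (48.6%, against 18% of all tested genes) and 9 higher (24.3%, against 15.5%) in cardiac than in tail tip fibroblasts, with a median log2 fold change of -0.53. In lung 20 were called lower than in tail tip (54.1%, against 28.2%) and 7 higher (18.9%, against 22.3%), with a median of -0.77. For cardiac against lung 14 were called higher (37.8%, against 20.8%) and 9 lower (24.3%, against 17.6%). Lox, a lysyl oxidase that crosslinks collagen, was at 1103 and 1455 CPM in cardiac, 188 and 247 CPM in lung and 7390 and 7409 CPM in tail tip libraries (Ad-Cre before Ad-GFP). Ppp1r3b, a glycogen-targeting subunit, was at 2.94 and 3.53 CPM, 4.48 and 4.12 CPM, and 29.6 and 26.5 CPM in the same order. Other listed targets differed in the opposite direction, among them Flt1, a VEGF receptor gene, at 231 and 235 CPM in cardiac, 4.32 and 4.12 CPM in lung and 5.61 and 5.97 CPM in tail tip libraries. Cxcr4, a chemokine receptor also found on leukocytes, had no read in either lung library, 146 and 246 reads in cardiac and 216 and 302 in tail tip.

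Of 16 other glycolysis genes tested, 5 were called lower (31.2%, against 18% of all tested genes) and 3 higher (18.8%, against 15.5%) in cardiac than in tail tip. In lung 6 were called lower than in tail tip (37.5%, against 28.2%) and 6 higher (37.5%, against 22.3%). Hk3 is a hexokinase known from myeloid cells, and it was at 9.88 and 14.8 CPM in cardiac, at 0.0779 and 0 CPM in lung, and at 40.0 and 49.9 CPM in tail tip libraries, the order of the macrophage markers. Eno3, the muscle enolase, had the opposite order, at 24.4 and 16.8 CPM in cardiac, 157 and 123 CPM in lung and 3.92 and 3.87 CPM in tail tip libraries. Of 16 other genes of pyruvate fate, 5 were called lower (31.2%, against 18%) and 2 higher (12.5%, against 15.5%) in cardiac than in tail tip. In lung 4 were called lower than in tail tip (25%, against 28.2%) and 5 higher (31.2%, against 22.3%). Slc16a1 (MCT1), the lactate transporter that also takes lactate up, was at 46.5 and 43.8 CPM in cardiac, 155 and 157 CPM in lung and 32.9 and 34.2 CPM in tail tip libraries, and was called higher in lung than in tail tip (2.22 ± 0.15, adjusted p = 3.3e-05) while Slc16a3 was called lower. Pdk2, a kinase of the same family as Pdk1 and Pdk4, was at 5.04 and 4.91 CPM in cardiac, 0.467 and 0.686 CPM in lung and 16.3 and 14.5 CPM in tail tip libraries.

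In the machinery of HIF itself, 14 genes were tested. In cardiac 1 was called higher than in tail tip (7.14%, against 15.5% of all tested genes) and none lower (0%, against 18%). In lung 2 were called higher than in tail tip (14.3%, against 22.3%) and 1 lower (7.14%, against 28.2%). For cardiac against lung 1 was called higher (7.14%, against 20.8%) and 3 lower (21.4%, against 17.6%). The gene with the largest change was Epas1, which encodes HIF2A, at 57.3 and 43.8 CPM in cardiac, 2.03 and 1.10 CPM in lung and 6.97 and 7.76 CPM in tail tip libraries. Cardiac was far above both others (5.03 ± 0.30 against lung, adjusted p = 4.4e-05, and 2.75 ± 0.25 against tail tip, adjusted p = 0.00028). Arnt, the partner of HIF1A, lay between 60.9 and 87.5 CPM in the 6 libraries, and Vhl, which targets hydroxylated HIF1A for destruction, between 17.9 and 24.9 CPM, and neither was called.

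The second question was how the 34 genes differ between Ad-Cre and Ad-GFP. As 1 effect common to the 3 origins, none of the 34 genes passed (edgeR quasi-likelihood test), as none of the 18143 tested genes did (0%), with 367 genes at an unadjusted p under 0.05. DESeq2 called 4 genes, none of them among the 34. Of the 34 fitted effects 17 were positive and 17 negative, and their median was -0.01. Pdk4 had the smallest unadjusted p of the 34, with a log2 fold change of 0.96 ± 0.22 (adjusted p = 0.9996 in edgeR's quasi-likelihood test), and was higher with Ad-Cre in all 3 origins. Its ratio of Ad-Cre to Ad-GFP was 2.91 in cardiac fibroblasts (95% interval 2.68 to 3.17), 1.72 in lung (1.61 to 1.85) and 1.34 in tail tip (1.01 to 1.78), the last from 124 and 89 reads. These intervals cover counting error only, since no group has a replicate. Pdk4 did pass with the filter on low counts removed and without 3 of the 6 libraries in turn, at adjusted p between 5.1e-05 and 0.0325.

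Within cardiac fibroblasts 3 of the 34 genes were at least 2-fold higher with Ad-Cre, where 11.3% of all tested genes were, and 2 were at least 2-fold lower, where 9.07% were. Besides Pdk4 the higher ones were Ndrg1, at 15.3 CPM with Ad-Cre and 7.31 CPM with Ad-GFP (ratio 2.10, interval 1.79 to 2.46), and Pfkfb4, at 28.9 and 13.9 CPM (ratio 2.08, 1.86 to 2.34). The lower ones were Aldoc, with 2 and 9 reads (ratio 0.237, 0.0249 to 1.14), and Ankrd37, with 20 and 47 reads (ratio 0.453, 0.254 to 0.780). Below 2-fold, Pdk1 had a ratio of 1.68 (1.31 to 2.16), Bnip3l 1.58 (1.49 to 1.67), Hk2 0.627 (0.592 to 0.664), Ddit4 0.703 (0.647 to 0.764) and Pfkl 0.714 (0.670 to 0.762). Of the 15 enzymes of glycolysis proper 11 had a ratio below 1 in this pair, beside 8948 of the 18143 tested genes. In the other origins most were above 1, 11 of the 15 in lung and 12 in tail tip. In the cardiac pair Pgam1 and Pfkp lay below 1 by so little that they were above it without TMM factors. Pfkl and Eno1 in lung and Aldoa in tail tip changed side in the same way. Other marker genes moved between these 2 libraries as well, with a summed level of 145 CPM with Ad-Cre against 14.4 CPM with Ad-GFP for 9 epithelial markers, 135 against 62.9 CPM for 7 mesothelial markers, 639 against 1066 CPM for 12 macrophage markers and 24157 against 33191 CPM for 10 fibroblast markers. Their part in the ratios was not tested.

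Within lung fibroblasts none of the 34 genes differed 2-fold, where 4.87% of all tested genes were at least 2-fold higher with Ad-Cre and 2.82% lower. Pfkfb4 came nearest, at 15.8 CPM with Ad-Cre and 8.81 CPM with Ad-GFP (ratio 1.79, interval 1.53 to 2.10), followed by Pdk4 and by Eno2 at 7.44 and 4.94 CPM (ratio 1.51, 1.21 to 1.88). Within tail tip fibroblasts none differed 2-fold either, where 1.53% of all tested genes were higher and 1.58% lower, and the ratios of Pfkfb4 and Eno2 were 0.940 (0.835 to 1.06) and 1.05 (0.951 to 1.15). The log2 ratios of the 34 genes had an SD of 0.59 in cardiac, 0.26 in lung and 0.12 in tail tip fibroblasts. Over all tested genes the SD was 1.01, 0.54 and 0.39 in the same order. These SDs and the 2-fold shares of all tested genes, in the cardiac pair too, were not matched for level. They include genes that averaged under 2 CPM, as none of the 34 did, and ratios from few reads carry more counting error. A smaller spread of the 34 genes than of genes of like level was therefore not tested. Whether the response of a gene differs between origins could not be tested with 1 library per group.

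**Figure D5:**
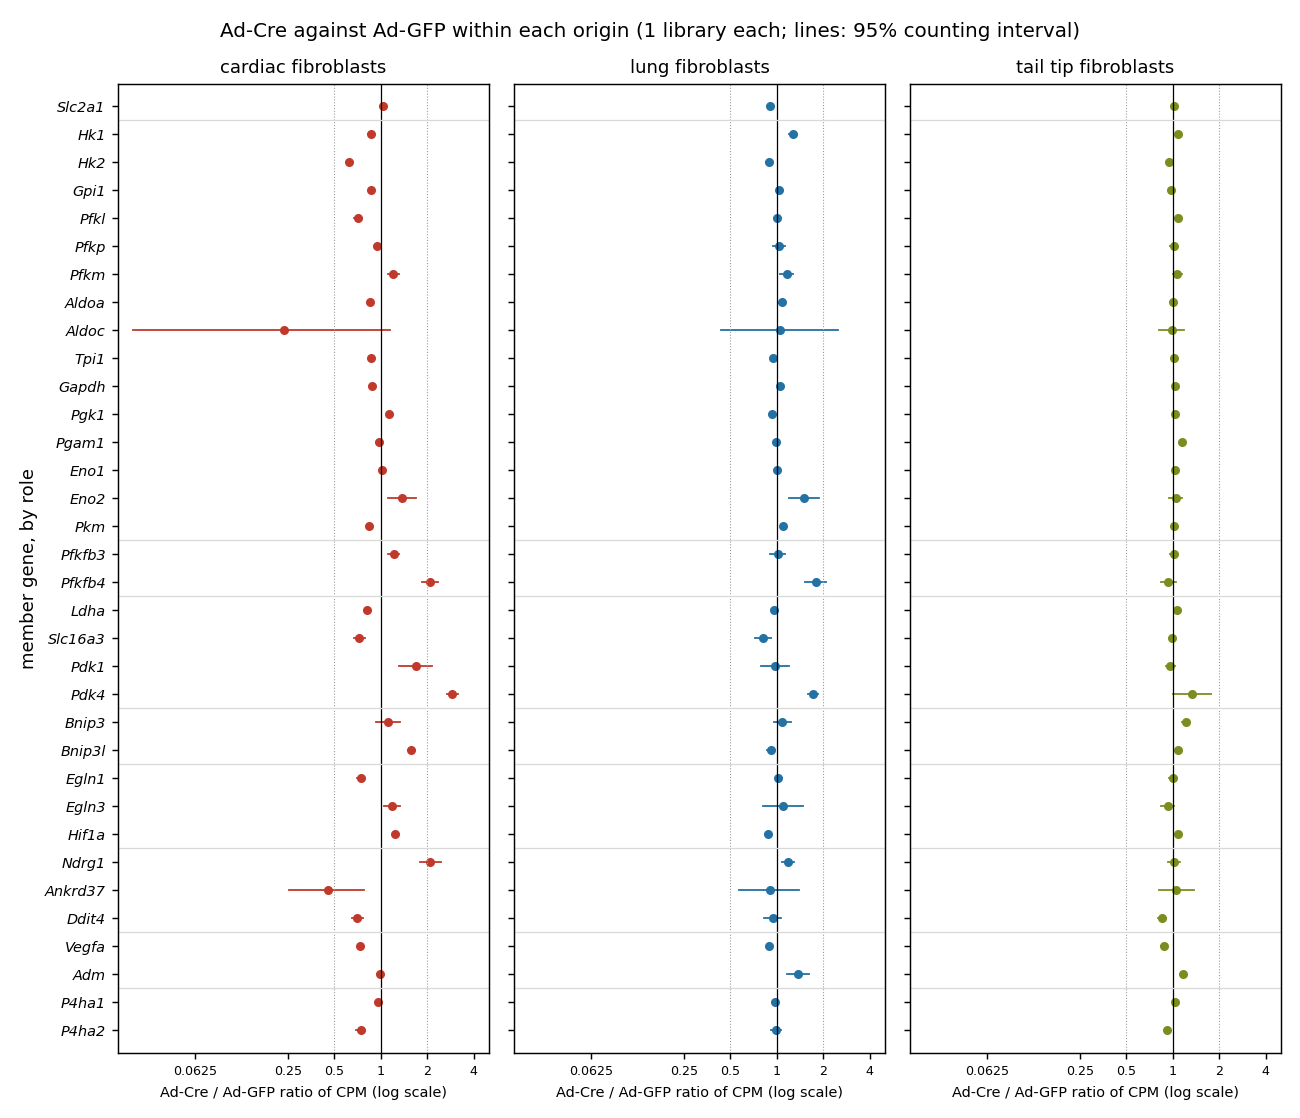
Ratio of Ad-Cre to Ad-GFP (CPM, log axis) of the 34 genes in cardiac, lung and tail tip fibroblasts from left to right, with 95% counting intervals as lines and dotted lines at 2-fold. Pdk4, Pfkfb4 and Ndrg1 lie beyond 2-fold in cardiac fibroblasts, and all tail tip points lie between 0.851 and 1.34.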

How the data were processed

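Polyadenylated RNA of 6 fibroblast libraries was analysed from a deposited table of counts, which holds whole numbers of reads for each Ensembl identifier, not normalised. The genome build mm39 and the aligner STAR 2.0.7 are listed, without a role, in the submitters' processing notes. For the counting tool, annotation, strand setting and filters, each is not given in the sources used here. Columns were matched to libraries by the column name in each label, although the labels name a matrix with another title.

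Symbols and exon-union lengths came from a GENCODE annotation of GRCm38, which gave 51884 of 57180 identifiers a symbol. The tests used edgeR 4.0.16 in R 4.3.3, with filterByExpr (minimum count 10), TMM factors of 0.964 to 1.03 and a robust quasi-likelihood fit of origin and virus over 6 libraries, with 2 residual degrees of freedom and adjustment by Benjamini-Hochberg over 18143 genes (threshold 0.05). SE is the absolute log2 fold change over the square root of F. Within an origin no test was made, and ratios carry exact conditional binomial 95% intervals, with log2 ratios at a prior count of 2. Since PCR copies may be among the reads, these intervals and the floor of 3 reads describe counting error alone. Libraries of an origin are not stated to be separate cultures or animals, so p-values measure only the spread between these libraries, which may be technical. The script was tested on simulated data.

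The genes and lists were chosen with earlier results of these data known. Named in full are genes called with at least 2-fold between origins, those at least 2-fold apart between viruses with 50 reads in a library, and the gene with the smallest p for the virus. Aldoc and some genes below these limits are named beside them after their values were seen. From other lists examples are among the 4 largest called changes per comparison with a mean of at least 1 CPM, apart from Arnt and Vhl, which were chosen after seeing their values. PPAR and FOXO targets and glucocorticoid response genes were also counted. Of 22 PPAR and FOXO targets tested, 7 were called lower (31.8%, against 18% of all tested genes) and 2 higher (9.09%, against 15.5%) in cardiac than in tail tip. In lung 9 were called lower than in tail tip (40.9%, against 28.2%) and 5 higher (22.7%, against 22.3%). Of 7 glucocorticoid response genes tested, 1 was called lower (14.3%) and 2 higher (28.6%) in cardiac than in tail tip. In lung 2 were called lower (28.6%) and 1 higher (14.3%). Alternatives were DESeq2 1.42.0, its size factors, library totals, no filter, limma-voom (limma 3.58.1) with library weights, no virus term, each library left out, a prior count of 0.5 and unscaled shares. Fits of only the 4 libraries compared and without the cardiac pair were added after seeing the data.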

Additional observations from a re-analysis of the deposited data

Results flagged for a closer look

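For 13 of the 34 genes the ratio of Ad-Cre to Ad-GFP lay above 1 in 1 origin and below 1 in another, with both counting intervals clear of 1. With 1 library per group the difference between origins was not tested, and counting error is the only error in these intervals. The share of all tested genes that meet this rule was not counted. Such intervals narrow as reads increase, so abundant genes clear 1 at ratios near it. P4ha1 did so at ratios of 0.962 in cardiac and 1.03 in tail tip. The largest gap in log2 ratio was that of Bnip3l, 0.79 between cardiac (0.66) and lung (-0.13). Hif1a differed in the same direction by 0.50 (0.32 in cardiac, -0.18 in lung) and Pgk1 by 0.29. In the other direction, with cardiac below 1, lung was above 1 for Hk1 (a gap of 0.56), Gpi1 (0.27), Aldoa (0.35), Gapdh (0.27) and Pkm (0.39). Tail tip was above 1 and cardiac below it for Pfkl (0.59), Tpi1 (0.25), Pgam1 (0.24), Ldha (0.40) and P4ha1 (0.098). Of these 13 genes, Pgam1 and P4ha1 were above 1 in cardiac fibroblasts when library totals replaced the TMM factors.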

How the results depend on the processing

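Between origins the number of the 34 genes called moved by less than 1.5 times under the alternatives run. The number of genes called ranged from 14 to 21 for cardiac against lung, from 13 to 24 for cardiac against tail tip and from 17 to 28 for lung against tail tip with each library left out, beside 15, 19 and 20. With only the 4 libraries compared it was 14, 19 and 28. For lung against tail tip that fit added Gapdh, Gpi1 and Ndrg1 as higher in lung and Aldoa, Ankrd37, Bnip3l, Pkm and Pfkfb4 as lower. Limma-voom, with 27 genes called there, added the same genes apart from Pfkfb4. Ldha was called lower in cardiac than in lung with limma-voom, and than in tail tip with library totals. For the virus the count of 0 became 1 (Pdk4) without a filter on low counts, and ranged from 0 to 1 with each library left out. Of all genes, DESeq2 called 4 for the virus, the fit without a filter 141, the fit without the cardiac pair 3 and fits without 1 library 11 to 109. For cardiac against tail tip, with 6077 genes called, fits without a tail tip library called 3338 (without Ad-Cre) or 3110 (without Ad-GFP), and fits without a cardiac library called 9205 (without Ad-Cre) or 9079 (without Ad-GFP). For lung against tail tip the count was 5995 without the tail tip Ad-GFP library, beside 9175. A prior count of 0.5 took the genes 2-fold apart in tail tip fibroblasts to 965, beside 563. No called gene of the 34 reversed its direction between origins. Besides the calls lost without 1 library, which are given beside each gene, Pgk1 against tail tip was lost in cardiac fibroblasts with DESeq2's size factors (adjusted p = 0.0552), Hk2 without the virus term (0.0783), and, with only the 4 libraries compared, Pgk1 and Vegfa against lung (0.0732 and 0.0736) and Pgk1 against tail tip (0.0526). Of 54 isozyme shares 45 moved beyond counting error without length scaling, as the lengths differ. Pdk1 in cardiac fibroblasts, for one, was 7.63% and 12.5%, beside 3.59% and 6.06%. No paired analysis was possible because each group holds 1 library and so no replicate number to pair by. The fit of the virus already compares libraries within each origin, through the origin term. Genes with few reads, Aldoc and Ankrd37 above all, are limited by depth.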
